A study of Mus musculus with 2 samples.

Results

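Expression of 10 genes of the Wnt pathway was followed in uterine stromal cells of pregnant mice, and the genes were chosen by name as ligands (Wnt4, Wnt5a, Wnt6), receptors (Fzd1, Fzd2, Lrp6), secreted antagonists (Sfrp1, Sfrp4, Dkk1) and the effector beta-catenin (Ctnnb1). Every probe set whose platform annotation gave exactly 1 gene symbol was taken, which found all 10 genes, with 19 probe sets, among 12393 genes and 20380 such probe sets on the array. RNA of cells pooled from 3 animals a group on day 5 of pregnancy was hybridised to 2 one-colour Affymetrix Mouse Genome 430A 2.0 arrays. The control array came from floxed mice, and no label says whether these carried Cre. The other array came from mice labelled as conditional knockouts, made with PRcre, a Cre recombinase expressed wherever the progesterone receptor is and so not in stroma alone. The labels disagree on the deleted gene (Hif1 in the titles, Hif2 alpha in the genotype field, and both Hif1 floxed mice and Rac1 in the breeding note), so the array is called knockout-labelled here. Mouse age was not given in the sources used here, and pooling leaves no value for a single animal.

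Wnt ligands are lipid-modified secreted proteins that bind Frizzled receptors together with the co-receptor LRP6. In the canonical branch this spares beta-catenin from a destruction complex, so that it enters the nucleus and acts with TCF/LEF factors. Other Wnt signals act on the cytoskeleton without beta-catenin. Secreted frizzled-related proteins bind Wnt ligands outside the cell, and Dickkopf proteins bind LRP co-receptors. In the mouse uterus Wnt4 is known as a stromal ligand of decidualization, the change by which stromal cells become large secretory cells around the embryo, and Wnt6 and Wnt5a have roles in the same tissue.

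Both secreted frizzled-related proteins were lower on the knockout-labelled array, while the ligands and LRP6 lay within 2-fold. Sfrp1 was 4.20-fold lower and Sfrp4 3.08-fold lower at the brightest probe set. Another Sfrp1 probe set of nearly the same mean signal was only 1.08-fold lower. Wnt5a and Fzd2 were higher at their brightest probe sets, by 1.64-fold and 1.53-fold, but lower at others. Ctnnb1 was 1.20-fold higher at its brightest probe set and 3.46-fold lower at the next. With 1 array a group there was no replicate, so no difference was tested, and each value describes these 2 arrays.

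The deposited MAS5 signals are intensities on a linear scale with the same trimmed mean, 150.1, on each array. A floor was set at the 40th percentile of both arrays, a signal of 19.7, and of probe sets other than controls 60.9% (control) and 59.1% (knockout-labelled) lay above it. Signals of different probe sets cannot be ranked against each other, so levels are compared only within a probe set. Log2 ratios are given as knockout-labelled minus control. The SD of a log2 ratio, estimated from pairs of probe sets of 1 gene, was 0.64 over 2660 genes, and it leaves out the spread between animals and arrays. The 3' to 5' signal ratio of the b-actin control was 2.27 for the control and 16.0 for the knockout-labelled cells. That of the Gapdh control was 1.49 and 7.25, and the bearing of these ratios on the members was not tested. Of the genes the labels name as deleted, Epas1 (which encodes Hif2 alpha) had signals of 59.4 and 78.1, with the control first here and below. Hif1a had 721 and 1544 at its brightest probe set and was also higher at the other 2 above the floor (log2 ratios 1.38 and 0.52). Rac1 had 1038 and 757 at its brightest and 664 and 332, or 2.00-fold lower, at the next. The probes may lie outside a deleted exon, so these values do not settle the genotype.

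Promoter windows were taken from RefSeq (GRCm38.p6), 250 bases before to 50 bases after a start, and 5 of the 10 members matched, Wnt4, Wnt6, Fzd1, Ctnnb1 and Dkk1. Their windows numbered 6, because Ctnnb1 had a second. They were searched on both strands for the core letters bound by HIF factors, ACGTG or GCGTG, of which the first also lies inside the E-box CACGTG, and for the TCF/LEF core, CTTTGAT or CTTTGAA. The HIF core was present in windows of 3 of these members, Wnt4, Wnt6 and Ctnnb1, and in 43.8% of all 32851 windows. The TCF/LEF core was present in the Dkk1 window and in 8.65% of all windows. Only 2 windows are shown, with matches in capitals, because beta-catenin is the protein that acts at the TCF/LEF core and Dkk1 is the member whose window holds it. The Ctnnb1 window shown lies at chr9:120933150-120933449 on the plus strand with its HIF core at position -70 from the start. In the other Ctnnb1 window, which overlaps it, the HIF core lies at position -248. The Dkk1 window lies at chr19:30549447-30549746 on the minus strand with its TCF/LEF core at position -117.
Ctnnb1: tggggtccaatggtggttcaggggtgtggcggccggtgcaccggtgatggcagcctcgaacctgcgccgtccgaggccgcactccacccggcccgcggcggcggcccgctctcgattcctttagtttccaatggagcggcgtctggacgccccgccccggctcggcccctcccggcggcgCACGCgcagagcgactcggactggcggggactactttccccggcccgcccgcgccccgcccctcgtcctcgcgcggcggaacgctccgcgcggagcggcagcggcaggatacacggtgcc
Dkk1: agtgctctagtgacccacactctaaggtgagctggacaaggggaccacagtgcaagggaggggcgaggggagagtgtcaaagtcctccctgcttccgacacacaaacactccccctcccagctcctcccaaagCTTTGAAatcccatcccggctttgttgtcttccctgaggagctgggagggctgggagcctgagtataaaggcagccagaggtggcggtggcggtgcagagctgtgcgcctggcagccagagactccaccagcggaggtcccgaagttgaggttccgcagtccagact
A match is a description of letters and not a site, and the arrays hold no measurement at these windows.

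Wnt4, whose single probe set (1450782_at) measured it, gave 82.0 in control and 66.8 in knockout-labelled cells. Its log2 ratio of -0.30 is smaller than the SD of 0.64 between probe sets, and it shrank to -0.02 when each array was centred on its median. Signals are read against genes of like brightness, for which all genes compared were divided into 5 equal groups by mean signal. In the group of Wnt4 the median log2 ratio was -0.36, so Wnt4 lay close to the middle of its group, with 52.6% of its genes lower.

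Wnt5a, a ligand known mostly for signalling without beta-catenin, was measured by a pair of probe sets that pointed in opposite directions. The brighter (1436791_at) read 536 and 876, a log2 ratio of 0.71. The dimmer (1448818_at) read 247 and 215, a log2 ratio of -0.20 that turned to 0.08 after median centring. The brightest signal group, to which the brighter probe set belongs, had a median of 0.31, and 76.4% of its genes were lower than Wnt5a. The gap of 0.91 between the probe sets was wider than that of 62.6% of 1814 genes with exactly 2 measured probe sets. Wnt5a therefore had no settled direction here.

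Wnt6, a ligand known in decidualizing stroma, was near the floor on both arrays, at 25.6 and 22.1, a log2 ratio of -0.21. The sign turned after median centring (0.07), and the value was 0.00 after quantile normalization. The 3 ligands thus had log2 ratios between -0.30 and 0.71 at their brightest probe sets, and none reached 2-fold, that is a log2 ratio of 1 in size, under any of the 3 other scalings.

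**Figure D1:**
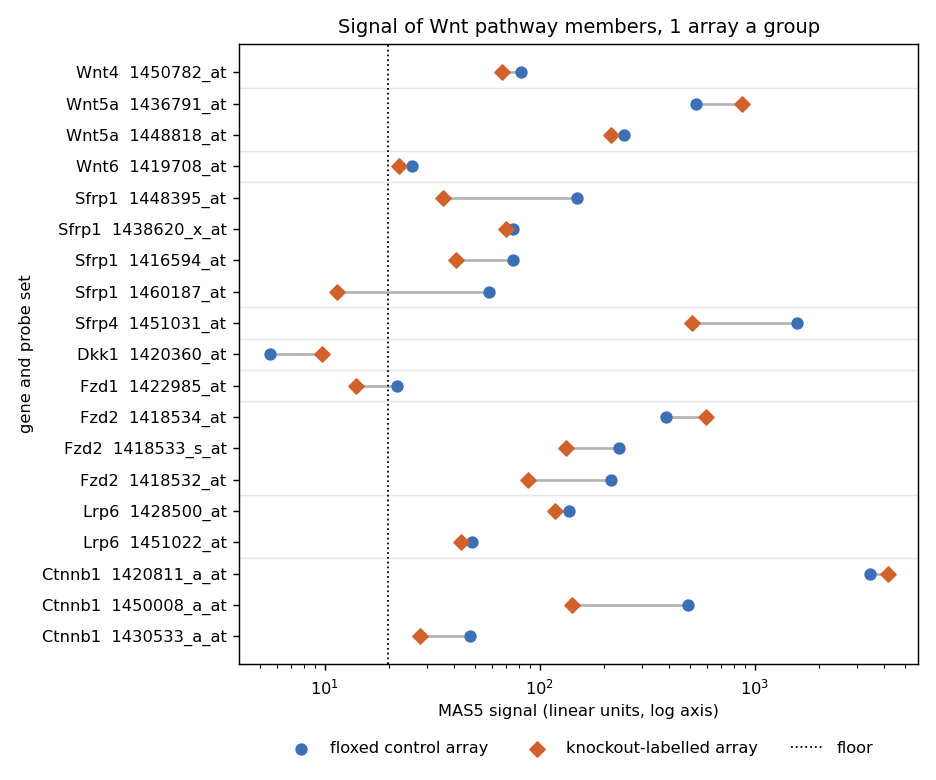
Signal of each of the 19 member probe sets (x axis, MAS5 signal on a log axis) on the floxed control array (blue circles) and the knockout-labelled array (orange diamonds), with the floor of 19.7 dotted. Lines join the 2 arrays, 1 value each. All 4 probe sets of Sfrp1 and the single one of Sfrp4 lie to the left on the knockout-labelled array, whereas the brightest of Wnt5a, Fzd2 and Ctnnb1 lie to the right.

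Fzd2, a seven-pass Frizzled receptor, had 3 probe sets with conflicting values. The brightest (1418534_at) had signals of 387 and 592 (log2 ratio 0.61), the next (1418533_s_at) 234 and 133 (-0.82), and the dimmest (1418532_at) 215 and 88.6 (-1.28). Each of these signs held under quantile normalization, median centring and removal of the trend with signal, so the scaling did not reconcile them. The span of 1.90 was wider than that of 79.4% of 846 genes with 3 or more measured probe sets, for which the median span was 1.30.

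Fzd1 was barely above the floor on the control array (signal 21.6) and below it on the other (14.0), which gives only a bound of at least 1.10-fold lower. At this signal the size of a decrease could not be measured and depended on the floor. The log2 ratio was -0.63 with the floor at the 25th percentile and -0.50 with a pseudocount and no floor. Lrp6, the co-receptor of canonical signalling, had signals of 137 and 118 at its brighter probe set (-0.21) and 48.7 and 42.9 at its other (-0.18). These ratios differed by 0.02, a gap wider than that of only 2.37% of genes with 2 measured probe sets. Lrp6 lay at the middle of its signal group, whose median was -0.19, and after median centring its probe sets gave 0.07 and 0.10. The dimmer turned positive under the other scalings too.

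Sfrp1 was lower at all 4 of its probe sets as deposited, by very unequal amounts. The brightest (1448395_at) read 149 in control and 35.5 in knockout-labelled cells, a log2 ratio of -2.07. A dimmer one (1416594_at) had signals of 75.1 and 40.9 (-0.88), and the dimmest (1460187_at) had 58.5 and 11.4, which is under the floor and gives a bound of at least 2.96-fold lower. The remaining probe set (1438620_x_at) had signals of 75.1 and 69.5 (-0.11), and its sign turned after each of the other scalings, to between 0.14 and 0.17. In mean log2 signal it was nearly level with the brightest (6.17 and 6.18). Its suffix marks probes that can bind other transcripts as well. The span of 1.96 was wider than that of 81.7% of the 846 genes with 3 or more measured probe sets. With the median over probe sets in place of the brightest, the log2 ratio of Sfrp1 was -1.22. Among 1718 genes of its signal group 29 had a lower ratio than Sfrp1, and 18.4% were lower by 2-fold or more.

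Sfrp4 rests on a single probe set (1451031_at), which gave 1573 in control and 512 in knockout-labelled cells, a log2 ratio of -1.62. In its signal group, the brightest, the median was 0.31, 6.69% of genes were lower by 2-fold or more, and 29 of 1719 genes had a lower ratio. The value stayed between -1.78 and -1.34 under all 8 alternative settings. Bulk RNA cannot tell fewer Sfrp4-expressing cells from less Sfrp4 RNA in each cell, and the same holds for every member. Dkk1, an inhibitor of LRP co-receptors and a known product of decidual stroma, was below the floor on both arrays (signals 5.58 and 9.70), so no ratio was formed.

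**Figure D2:**
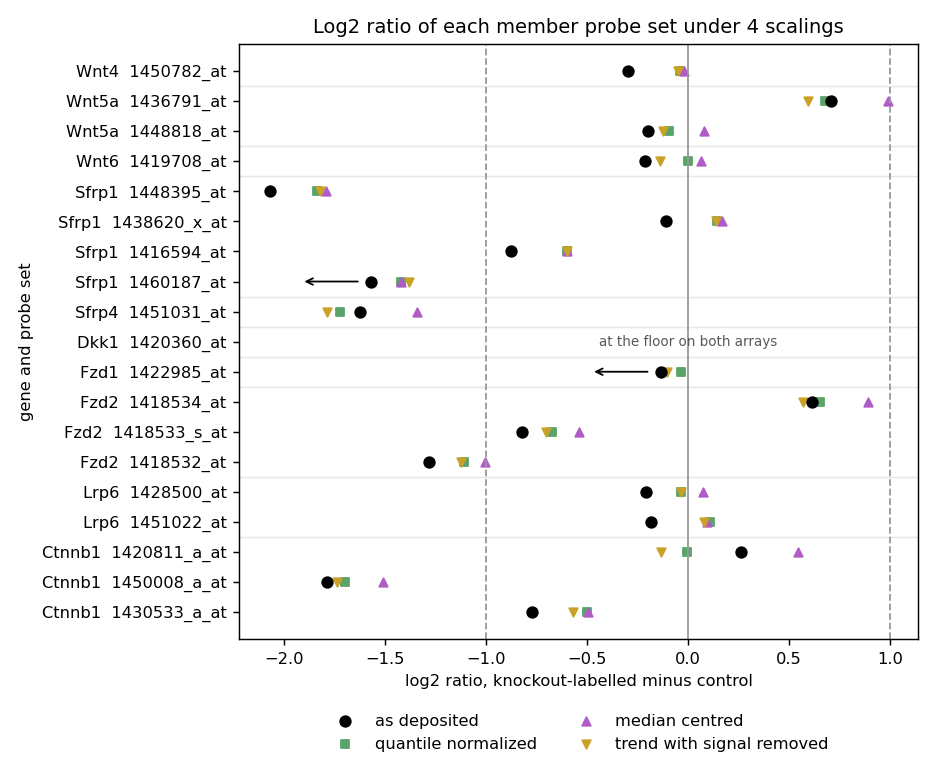
Log2 ratio (x axis, knockout-labelled minus control) of each member probe set as deposited (black circles) and under 3 other scalings (coloured symbols), with dashed lines at 2-fold. Arrows mark bounds, where the knockout-labelled signal was at the floor. Sfrp4 and the brightest probe set of Sfrp1 stay beyond the left dashed line under each scaling, while the probe sets of Wnt4, Wnt6 and Lrp6 lie near 0.

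Ctnnb1, which encodes beta-catenin, had 3 probe sets that can each match several of its transcripts. The brightest (1420811_a_at) read 3451 and 4147, a log2 ratio of 0.27 that lay beside the median of its signal group (0.31) and turned to -0.13 once the trend with signal was removed. The next (1450008_a_at) read 491 and 142, a log2 ratio of -1.79, and the dimmest (1430533_a_at) had 47.7 and 27.9 (-0.77). The span of 2.05 exceeded that of 84.2% of the genes with 3 or more measured probe sets. The direction of Ctnnb1 was therefore not settled. In Wnt5a, Fzd2 and Ctnnb1 alike the brightest probe set had the highest ratio, and across all 2660 genes with 2 or more measured probe sets the brightest exceeded the next in 68.0%, by a median of 0.36. Sfrp1 went the other way, its brightest probe set having the lowest ratio of the 3 above the floor on both arrays. Its dimmest gave only a bound and cannot be ranked. On the control probe sets of b-actin the log2 ratio was 0.66 at the 3' end and -2.16 at the 5' end. Those of Gapdh gave -0.43 at the 3' end and -2.71 at the 5' end. The place of the member probe sets along their transcripts was not analysed here, and whether it accounts for their disagreement was not tested.

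Among the 9 members with a ratio, Sfrp1 and Sfrp4 were lower by 2-fold or more at the brightest probe set and no member was higher by that much, that is 2 and 0 genes. Of all 8593 genes compared, 13% were lower and 6.21% higher by 2-fold or more. By any amount 6 members were lower and 3 higher, with a median of -0.21 where that of all genes was -0.10. Median centring moved the latter to 0.16, so small ratios are best read relative to it. Counted by probe set, 5 of 18 were lower by 2-fold or more (2 of Sfrp1, including the bound, and 1 each of Sfrp4, Fzd2 and Ctnnb1) and none was higher by that much, where the background was 13.9% lower and 6.84% higher of 13284 probe sets. Probe sets of 1 gene share their target and are not independent. The members were too few to read these shares as different from the background.

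**Figure D3:**
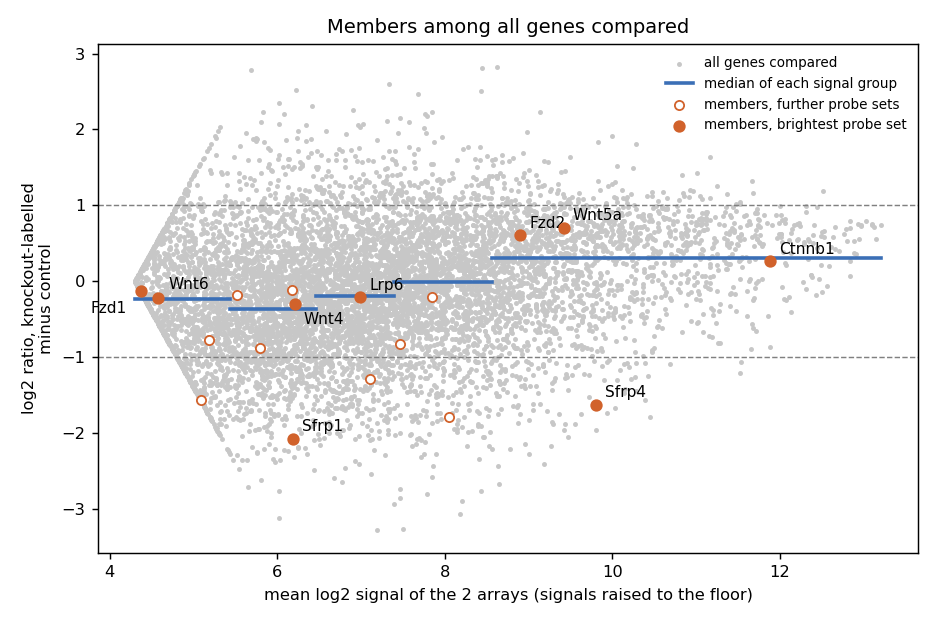
Log2 ratio (y axis) against mean log2 signal (x axis, signals raised to the floor) for the 8593 genes compared (grey), with the median of each of 5 equal signal groups (blue lines) and the members at their brightest (filled) and further (open) probe sets. Sfrp1 and Sfrp4 lie far below the line of their group, and Wnt4, Wnt6, Lrp6 and Ctnnb1 lie close to theirs.

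The other genes of the pathway were followed as 166 genes in 9 lists by role, of which 102 could be compared. At the brightest probe set 6 passed 2-fold upward (5.88%) and 9 downward (8.82%), with a median of 0.05. Among all genes compared these shares were 6.21% and 13%, with a median of -0.10. Single lists were too small to read their counts as different from these shares. The lists share a few genes with each other. Median centring gave 18 higher and 6 lower, and over all genes it likewise turned 534 higher and 1119 lower into 1146 higher and 670 lower, so the balance of directions follows the scaling of the whole array.

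The remaining Wnt genes were mostly below the floor, and 13 of 18 ligands and R-spondins with a probe set had no ratio. Wnt5b, a close relative of Wnt5a, had signals of 57.2 and 136 (log2 ratio 1.25) at its brighter probe set and 27.3 and 9.05 at the other, a bound in the opposite direction. Rspo1, a potentiator of Wnt receptors, had signals of 89.8 and 73.4 (-0.29), and Rspo2 was below the floor. Of 8 genes for ligand processing and secretion, Tmed5, a cargo receptor of the early secretory pathway, was higher at its probe sets (2.60 and 1.14), and Sulf2, a sulfatase that trims heparan sulfate outside the cell, was lower (signals 288 and 68.6, -2.07).

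Of 8 further receptors, as deposited, Ptk7, a pseudokinase co-receptor of planar polarity signalling, was the gene past 2-fold, with signals of 179 and 42.2 (-2.08), and Lrp5 was below the floor. Of the 6 further antagonists compared none was past 2-fold at its brightest probe set as deposited. The list had a median of -0.41, with 4 lower and 2 higher by any amount. The nearest relatives of the members were Sfrp2, with signals of 678 and 513 (-0.40), and Frzb, with 431 and 257 (-0.74) and a lower bound of the same sign at its other probe set. Dkk3 gave -0.42 and -0.15 and Dkk2 gave 0.50, while Sfrp5 was below the floor. Apcdd1, a membrane inhibitor of Wnt receptors, ranged from 0.95 at its brightest probe set to -2.01 at its dimmest. Igfbp4, which also binds Wnt receptors, was lower at all 6 of its probe sets, from -0.33 to -1.63 among those measured on both arrays, and at its brightest by -0.45.

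Inside the cell, 18 genes of Dishevelled and the destruction complex were compared at the brightest probe set, with a median of 0.34. Of these 3 were past 2-fold downward (16.7%) and 2 upward (11.1%), where all genes had 13% and 6.21%. Csnk1g2 (-1.53), a casein kinase of LRP6, Dvl2 (-1.45), an adaptor between Frizzled and LRP6, and Csnk1e (-1.06), a casein kinase that acts on Dishevelled, were lower. The other probe set of Csnk1e gave -1.29. Fbxw11, a ubiquitin ligase subunit that recognises beta-catenin, gave 1.09 and -0.26, and Ppp2r1a, a phosphatase scaffold named after its value was seen, gave 1.03 at its brightest of 5 probe sets and -0.45 at its dimmest. Of 16 TCF/LEF factors and cofactors, Ctnnbip1, which blocks the binding of beta-catenin to TCF, was lower (signals 77.0 and 26.7, -1.53), and Lef1 was below the floor.

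The 12 genes compared from the list of beta-catenin targets had a median of 0.24 at the brightest probe set. In each direction 1 was past 2-fold (8.33%), where 13% of all genes were lower and 6.21% higher. Axin2, the target most widely used as a readout of canonical signalling, had signals of 57.5 and 76.0 (0.40). Myc had 488 and 234 (-1.06). Tcf12, which despite its name is not a TCF/LEF factor and is no established target, gave 1.20 at its brighter probe set and 0.04 at its other. It was the only gene of the list past 2-fold upward. In the planar polarity and calcium branch, 1 of 21 genes was past 2-fold, the kinase Rock1, with log2 ratios from 1.43 to 2.23 over 4 probe sets. Of 9 cadherin partners compared, 2 were past 2-fold at the brightest probe set, both lower (22.2%). Ctnnd1 (p120 catenin) was at least 2.73-fold lower and Cdh5, the endothelial cadherin, was lower (-1.12). Ctnna1, the catenin that links cadherin-bound beta-catenin to actin, gave 0.54 and 0.56.

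**Figure D4:**
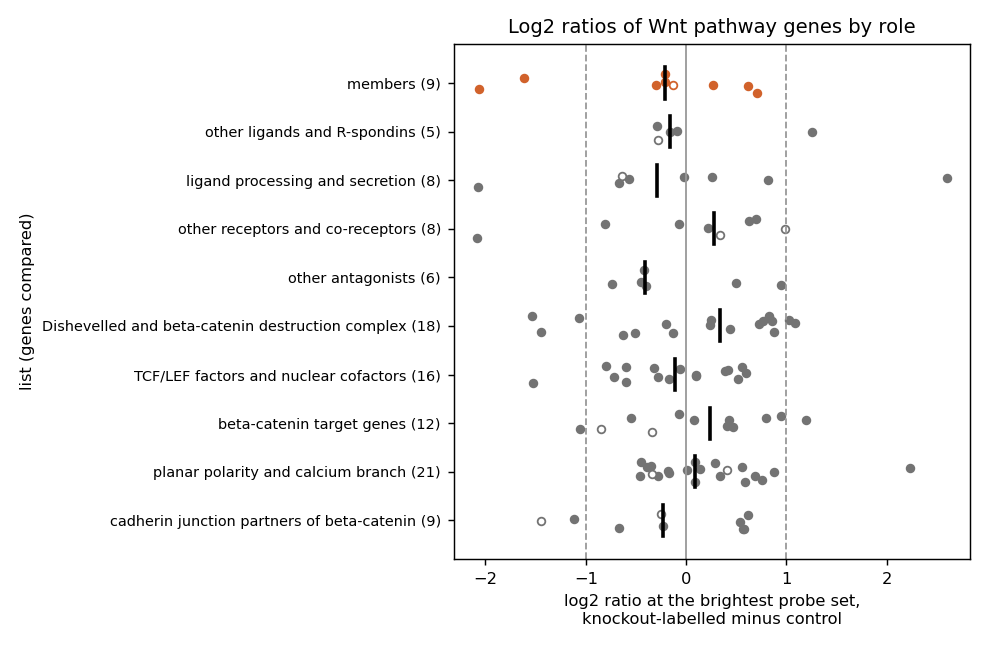
Log2 ratio at the brightest probe set (x axis) of each gene compared in the members (orange) and in the 9 other lists (grey), with list medians as black bars, dashed lines at 2-fold and open circles for bounds. Points are spread vertically only to be seen. Most genes of each list lie inside 2-fold.

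Markers of uterine stroma were present, as all 15 exceeded the floor somewhere, but their ratios were mixed, with 9 higher and 6 lower by any amount and a median log2 ratio of 0.06 (all genes -0.10). Col3a1, a fibrillar collagen, had signals of 7439 and 10987. Vim, an intermediate filament of mesenchymal cells, read 4701 and 7436 at the probe set with the highest mean but 5391 and 3595 at another (-0.58). The receptor Pdgfra read 2215 and 2213 at its brighter probe set and 111 and 34.3 at its dimmer (-1.70), and the dimmer probe set of Pdgfrb gave -2.09. Hoxa11, a homeobox factor of the uterus, was the marker lower by 2-fold or more at its brightest probe set, with signals of 389 and 108 (-1.85). Pgr, the progesterone receptor, gave -0.83, from signals of 52.6 and 29.7. Hand2 (21.2 and 22.1) and Esr1 (18.4 and 19.8) lay close to the floor.

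Markers of other cell types were also detected, and of all genes 13% were lower and 6.21% higher by 2-fold or more. At the brightest probe set 6 of 12 endothelial markers were lower by that size (50%), with a median log2 ratio of -1.03. Of 14 leukocyte markers 8 were lower (57.1%) and 3 higher (21.4%), with a median of -1.25. Of 11 smooth muscle and pericyte markers 4 were lower (36.4%), with a median of -0.82, and of 12 epithelial markers 3 were lower (25%), with a median of -0.49. No list other than that of leukocytes had a marker higher by 2-fold at its brightest probe set. The smooth muscle marker Myh11 was 2.31-fold higher at its dimmer probe set, with a log2 ratio of -0.78 at its brighter. Summed over a list, where a few bright probe sets weigh most, the signal was 34738 in control and 47147 in knockout-labelled cells for stroma, 4266 and 2443 for endothelium, 5107 and 4704 for leukocytes, 13256 and 14058 for smooth muscle and pericytes, and 2557 and 2030 for epithelium. The sum for smooth muscle and pericytes thus went up although 7 of its 11 markers went down by some amount. Krt19, Ovol1 and Cd3e were below the floor on both arrays. The part of these cell types in the values of Sfrp1 and Sfrp4 was not tested.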

How the data were processed

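RNA of uterine stromal cells pooled from 3 animals a group was measured on 1 array for each of 2 groups, taken from the sample titles. Trizol extraction, an RNeasy clean-up and labelling with the Affymetrix 3' Express kit, which copies from the 3' poly-A tail, are given per the labels' protocols. The authors deposited 1 intensity per probe set, from the MAS5 method of Affymetrix Expression Console (version 1) per the submitters' processing notes, and their scaling was kept. Depth has no meaning for arrays, and their number limits the precision.

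Probe sets were named from the platform annotation, with symbols updated through Entrez identifiers in a RefSeq table (GRCm38.p6) for 20351 of 20380 probe sets with 1 symbol. A further 691 had several symbols and 1555 none, and 64 control probe sets were left out. Signals were raised to the floor of 19.7 and put on a log2 scale, and a gene took its brightest probe set by mean log2 signal. The 3800 genes that never exceeded the floor were dropped, and 8593 remained. A size of 2-fold was used for counting, and no test or p-value was possible. Python 3.11.15, pandas 2.3.3 and statsmodels 0.14.6 were used. The ratio and size rule were run on simulated data with less spread than these arrays and the same change at all probe sets of a gene. That run checks the code and does not show how accurate the rule is on these arrays. The members, gene lists and rules were chosen with earlier results of these data known. Named genes were all members, up to 4 genes of each list with the largest ratios past 2-fold or otherwise the 2 brightest, and a few close relatives fixed by name. Alternatives were 3 other scalings, 2 other floors (25th and 60th percentile), a pseudocount of 4.70 without a floor, a gene's median over its probe sets, leaving out probe sets with suffix _s_at, _x_at or _a_at, other fold sizes and counting by probe set.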

Additional observations from a re-analysis of the deposited data

How the results depend on the processing

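The count of member genes at least 2-fold different was 2, Sfrp1 and Sfrp4, under each of 8 alternatives of scaling, floor and probe set choice and at 3-fold. Over those 8 alternatives between 7.79% and 15.1% of all genes were lower by 2-fold or more, and 3.84% were lower by 3-fold or more. The member count was 4 of 9 at 1.5-fold, 2 in each direction, where 18.5% of all genes were higher and 26.4% lower. By probe set it was 5 of 18, all lower, where 13.9% of all probe sets were lower. Of 68 log2 ratios of single members under the alternatives, 64 moved by less than 0.64 and 4 by more. These 4 were Ctnnb1 (-0.77) and Fzd2 (-0.82) with the median over probe sets, and Sfrp1 with that median (-1.22) and with the floor at the 60th percentile (-1.17). The last is a bound, because the knockout-labelled signal of Sfrp1 (35.5) lay under that floor. No member past 2-fold changed sign. Of all genes 13.3% were higher and 7.79% lower after median centring, and 1.23% higher and 3.84% lower at 3-fold. For the other pathway genes the count of 15 of 102 became 24 of 104 after median centring, 44 of 102 at 1.5-fold, 4 of 102 at 3-fold and 37 of 170 by probe set. The share of higher genes among these counts was 40% as deposited, 50% after quantile normalization or removal of the trend, 75% after median centring and 15.4% with the median over probe sets, and that of all genes moved alike, from 32.3% as deposited to 46.3% after quantile normalization, 43.7% after removal of the trend, 63.1% after median centring and 24.9% with that median. The median of 0.05 became 0.14 after quantile normalization, 0.28 after median centring, 0.17 with the floor at the 60th percentile and -0.11 with the median over probe sets, where medians of all genes were 0.03, 0.16, -0.05 and -0.17. Without the suffixed probe sets Ctnnb1 gave no value. No paired analysis was possible because each group holds 1 array, and no array could be left out. Signals near the floor, as those of Wnt6, Fzd1 and Dkk1, limit what can be seen of these genes.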
